A study of Mus musculus with 8 samples.

Results

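The genes described here are the chemokines and chemokine receptors whose open chromatin was measured in 4 populations of mTEC (medullary thymic epithelial cells), the cells that line the thymic medulla and display self antigens to developing T cells. The merged peak table was searched for gene symbols of the families Ccl, Cxcl, Cx3c, Xcl, Ccr, Cxcr, Xcr and Ackr, and every peak that the authors' annotation assigned to such a gene was kept. This gave 166 of 74090 peaks and 45 of 18215 genes: 27 ligands, 14 signalling receptors and 4 atypical receptors. Accessibility came from ATAC-seq, where a transposase inserts adapters into open DNA, so a high value means open chromatin and not transcription. All cells came from thymi of C57BL/6 mice, digested with enzymes, and were sorted as CD45- and Epcam+. mTEC-I was MHCIIlow and Itgb4+, mTEC-II was MHCIIhigh, mTEC-III was Ly6D+, and mTEC-IV was MHCIIlow, Itgb4- and L1cam+. The sources used here do not give age, sex or the number of animals per library. Each population had 2 libraries, the study had no untreated control, and the labels do not say whether replicates were separate animals, which means that the p-values reflect library-to-library spread that may be technical.

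Chemokines are small secreted proteins that bind to heparan sulfate on cell surfaces and guide cells carrying the matching receptor, a 7-transmembrane protein coupled to Gi proteins. Atypical receptors bind chemokines without Gi signalling and remove them. In the thymus, Cxcl12 and Ccl25 act on Cxcr4 and Ccr9 of immature thymocytes, Ccl19 and Ccl21 draw positively selected thymocytes into the medulla through Ccr7, Ccl17 and Ccl22 act on Ccr4, and Xcl1 made by mature mTEC attracts Xcr1+ dendritic cells. Cxcl9, Cxcl10 and Cxcl11 are induced by interferon and act on Cxcr3.

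The start sites of these genes differ in whether they were the places where the populations differed. The 250 bases before the start are shown for 3 ligands whose start-site peak was called among the populations (that of Cxcl14 entered the test through mTEC-I alone) and for 1 ligand and 1 receptor whose start-site peak did not pass that test although distant peaks did. The ligand is Cxcl12, and its 4 called distant peaks had entered the test through mTEC-I alone, so their calls are no independent evidence. The sequences are from RefSeq on GRCm38.p6, run 5′ to 3′ on the gene's own strand, and carry in capitals the matches to motifs searched on both strands: the kappaB site bound by NF-kB, the interferon-stimulated response element, the AP-1 site, the octamer (ATGCAAAT), the STAT site (TTCNNNGAA) and the TATA box.
Cxcl9, chr5:92328080-92328329, minus strand: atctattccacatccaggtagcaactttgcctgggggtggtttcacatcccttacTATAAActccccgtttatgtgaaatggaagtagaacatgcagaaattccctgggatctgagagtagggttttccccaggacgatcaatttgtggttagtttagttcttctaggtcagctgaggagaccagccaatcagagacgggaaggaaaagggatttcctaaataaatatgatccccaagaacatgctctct
Cxcl10, chr5:92348890-92349139, minus strand: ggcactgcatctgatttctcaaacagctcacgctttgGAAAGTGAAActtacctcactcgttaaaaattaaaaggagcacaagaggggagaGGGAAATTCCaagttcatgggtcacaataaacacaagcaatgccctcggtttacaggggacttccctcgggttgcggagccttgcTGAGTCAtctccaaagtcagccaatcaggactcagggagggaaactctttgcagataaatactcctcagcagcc
Cxcl14, chr13:56296552-56296801, minus strand: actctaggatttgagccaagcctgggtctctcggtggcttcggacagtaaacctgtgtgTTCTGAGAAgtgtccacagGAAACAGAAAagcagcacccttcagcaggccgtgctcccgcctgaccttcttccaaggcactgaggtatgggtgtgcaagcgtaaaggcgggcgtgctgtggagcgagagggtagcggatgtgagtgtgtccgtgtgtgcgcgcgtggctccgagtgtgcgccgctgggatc
Cxcl12, chr6:117168285-117168534, plus strand: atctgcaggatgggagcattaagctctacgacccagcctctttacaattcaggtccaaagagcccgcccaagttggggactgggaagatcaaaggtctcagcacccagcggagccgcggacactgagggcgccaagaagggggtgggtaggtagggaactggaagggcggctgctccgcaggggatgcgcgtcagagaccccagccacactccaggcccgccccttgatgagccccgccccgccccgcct
Cxcr4, chr1:128592300-128592549, minus strand: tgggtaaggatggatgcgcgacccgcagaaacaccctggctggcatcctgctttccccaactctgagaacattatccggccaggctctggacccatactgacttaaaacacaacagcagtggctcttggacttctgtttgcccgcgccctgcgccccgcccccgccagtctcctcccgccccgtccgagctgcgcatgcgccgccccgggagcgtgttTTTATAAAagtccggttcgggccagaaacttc
In Cxcl10, the capitals mark an interferon-stimulated response element starting 213 bases before the transcription start, a kappaB site 159 bases before it and an AP-1 site (TGANTCA) 74 bases before it. Cxcl14 held a STAT match at 191 and an interferon-stimulated response element at 172 bases before the start, Cxcl9 a TATA box (TATAAA) at 195 bases and Cxcr4 a TATA box at 30 bases, the last beside an overlapping match on the other strand at 32 bases. No motif of the 6 matched in the Cxcl12 window. Of all 32851 RefSeq entries of the same length, 2.98% held the response element, 1.21% the kappaB site, 6.75% the AP-1 site, 7.02% the STAT site, 1.6% the octamer and 12.4% the TATA box. Of the 45 genes, 33 had an entry, and of these 2 held the response element, 6 the kappaB site, 5 the AP-1 site, 2 the STAT site, 11 the TATA box and 0 the octamer. These matches are descriptions of letters and were not tested as binding sites. The start-site peaks of Cxcl14 and Cxcl12 were centred 134 and 95 bases after the assigned start, downstream of the printed windows. The letters marked in Cxcl14 thus lie outside its peak.

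Values are given as normalised tags per library, which are the authors' tags per 10000000 after a scaling (TMM) that makes the bulk of all peaks equal between libraries. Libraries held 3606436 to 10374623 tags, of which 8.44% to 19.7% fell in merged peaks, the lowest shares being the 2 of mTEC-III (8.44% and 11%). The member peaks held 1288 to 6094 read ends per library, so 1 tag was worth 0.876 to 3.36 normalised tags and small values carry a large counting error. Differences are log2 differences of (normalised tags + 1) between a population and the mean of the other 3 unless a pair is named, and they understate the change where tags are few. Without TMM, on the authors' scaling to total tags, the median of all genes moved to -0.82 (log2) in mTEC-III against the mean of the other 3, from -0.04 with TMM, and to 0.47 for mTEC-I, from -0.08. Of the genes of the sort, Itgb4 was higher in mTEC-I, a call lost without mTEC-I replicate 1. H2-Ab1 was lower in mTEC-IV and higher in mTEC-II and mTEC-III, but not called in mTEC-I (-0.04, adjusted p = 0.795). Its higher calls were lost without replicate 1 of the population named. As sums, L1cam and Ly6d were called in no population. Within 1 kb of the start, L1cam held 11.5 and 12.6 tags in mTEC-IV, against 1.17 to 3.36 in the other 6 libraries, which was not tested. Epcam held 355 to 578 tags in every library. It was higher in mTEC-IV (0.56, adjusted p = 2.84e-05) and lower in mTEC-I (-0.34, adjusted p = 0.00319, lost without either mTEC-I library at 0.0674 and 0.0717). Psmb11, a cortical epithelial gene, had no peak assigned to it in the table used here.

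Differences among the 4 populations (limma, adjusted p under 0.05) were found for 76 of the 122 member peaks that passed the filter on low values, 62.3%, against 49.2% of all peaks tested. Summed over all peaks assigned to a gene, 30 of 44 genes tested differed, 68.2%, against 47.1% of all genes. The gene not tested was Ccr9, and 44 peaks fell under the filter, which asked for 10 normalised tags in 2 libraries. A feature that reaches 10 tags in libraries of 1 population only is tested because it is high there, so its call is no independent evidence. This held for 27 of the tested peaks, of which 26 were called, and for 4 of the tested genes, all 4 called (Ccl11, Ccr2, Cxcl15 and Cxcr6). Of the rest, 50 of 95 peaks and 26 of 40 genes were called, and the matching shares over all features were not counted. Values of features that entered through 1 population alone are given below without a p-value. The sum of a gene includes such peaks, so a call of a sum that rests on them carries the same limit. Against the mean of the other 3 populations, 18 genes were higher and 10 lower in mTEC-I (background 16.4% and 19.7% of all genes), 6 higher and 3 lower in mTEC-II (5.44% and 5.15%), 3 higher and 1 lower in mTEC-III (3.19% and 4.04%), and 6 higher and 15 lower in mTEC-IV (18.1% and 14%). For peaks the counts were 34 and 25 for mTEC-I (17.7% and 19.8% of all peaks), 16 and 4 for mTEC-II (5.31% and 3.39%), 5 and 1 for mTEC-III (2.59% and 1.4%), and 14 and 36 for mTEC-IV (16.9% and 18.6%). Of the peaks called higher, 19 of 34 in mTEC-I, 1 of 16 in mTEC-II and 7 of 14 in mTEC-IV had passed the filter through that population alone. Some peaks called lower, in mTEC-IV and in mTEC-I, had passed it through a single other population. A low value elsewhere was built into those, so their calls are no independent evidence either. Ligands and receptors took opposite sides in mTEC-I: 14 of 27 ligands were higher and 3 lower, while 2 of 13 receptors were higher and 7 lower. In mTEC-IV, 2 ligands were higher and 11 lower. On the authors' scaling to total tags these counts were 19 ligands higher and 1 lower and 3 receptors higher and 4 lower in mTEC-I, and 2 ligands higher and 8 lower in mTEC-IV, while in mTEC-III 0 members were higher and 26 lower. The median log2 difference of the 44 genes was 0.19 for mTEC-I, against -0.08 for all genes, and -0.16 for mTEC-IV, against 0.10 for all genes.

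With 2 libraries per population, many calls depend on both. Of the 18 genes higher in mTEC-I, 7 kept the call in each of 8 fits that left out 1 library (Ccl2, Ccl9, Ccl20, Cx3cl1, Cxcl11, Cxcl12 and Cxcl14), as did 4 of the 10 lower in mTEC-I (Ccr4, Ccr7 and Cxcr5 among them), 9 of the 15 lower in mTEC-IV (Ackr3, Ccl2, Ccl3, Ccl20, Cx3cl1, Cxcl9, Cxcl10, Cxcl11 and Cxcl14), Ccr4 for mTEC-II and mTEC-III, and Ackr2 for mTEC-II. The count of genes higher in mTEC-I was 8 and 10 without replicate 1 and 2 of mTEC-I, where 8.81% and 8.04% of all genes were called higher, and that of genes higher in mTEC-IV was 0 and 1 without replicate 1 and 2 of mTEC-IV, where 7.17% and 8.64% were. A population left with 1 library is assumed to vary like the others in these fits. For the other called chemokine and receptor genes described below, the libraries without which a call was lost are named with the value. Calls of single peaks depended on the libraries more. Without either mTEC-I library 0 of the 34 peaks were called higher in mTEC-I, where 2.04% and 1.84% of all peaks were. Without either mTEC-II library 0 were called higher in mTEC-II (0% and 0.169% of all peaks). Without replicate 1 and 2 of mTEC-IV 1 and 2 were called higher in mTEC-IV (1.92% and 2.87%). Of the lower peaks, 7 of 25 in mTEC-I and 14 of 36 in mTEC-IV kept the call in all 8 fits, whereas no peak called higher did. Each mTEC-I or mTEC-II peak described below as higher therefore lost its call, or was no longer tested, without either library of its population.

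**Figure D1:**
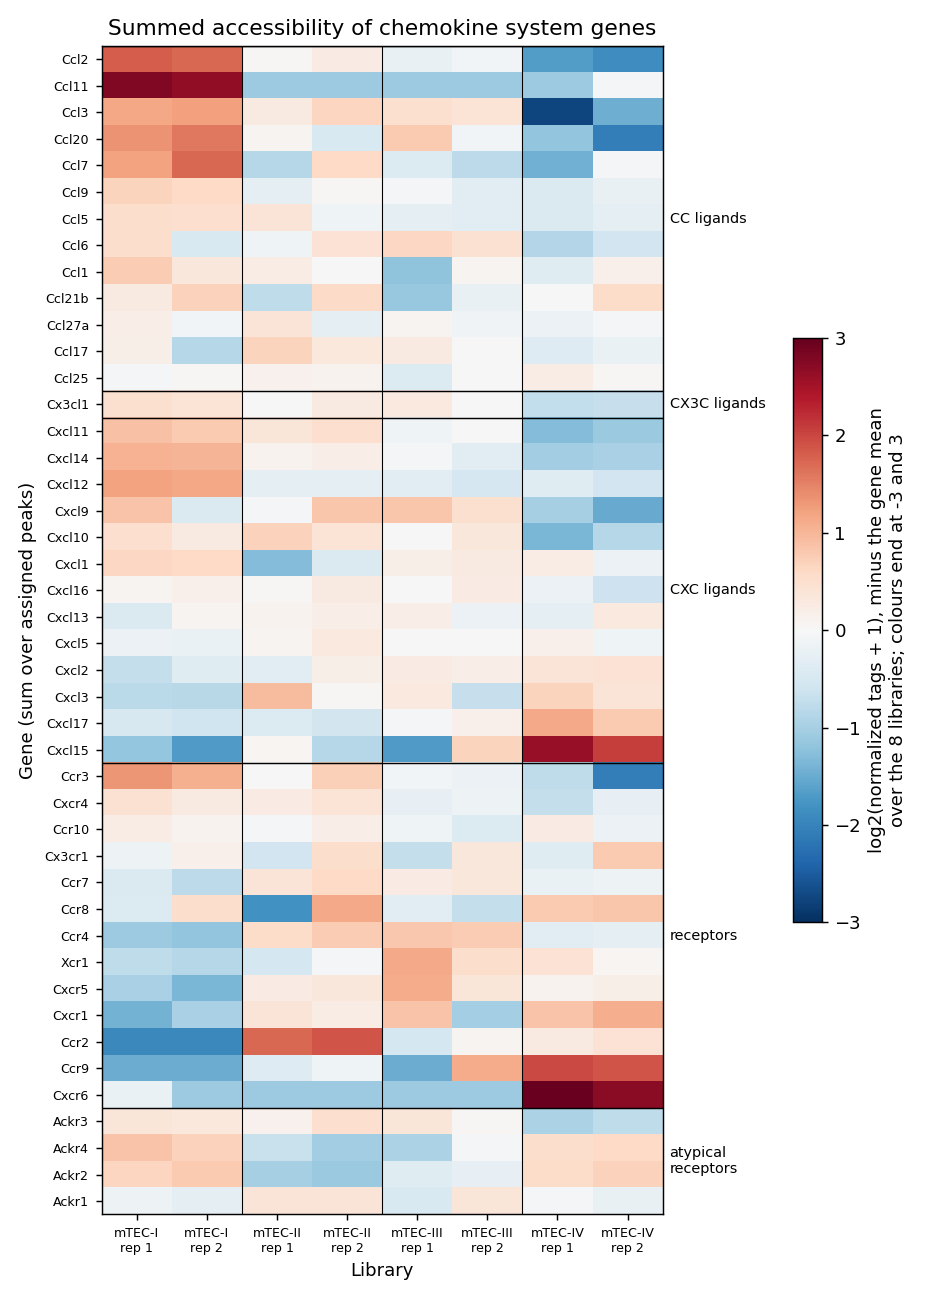
Summed accessibility of the genes reported here (rows, grouped by role) in the 8 libraries (columns, 2 per population), as log2(normalised tags + 1) minus the gene's mean over the libraries, with red above and blue below that mean. Ccl2, Cxcl12 and Cxcl14 stand out in red in both mTEC-I libraries, and Cxcr6 and Cxcl15 in both mTEC-IV libraries.

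Cxcl12, the ligand of Cxcr4 and Ackr3 that retains progenitors and thymocytes, had the most assigned peaks of any member, 17, and was open mainly in mTEC-I. Its peaks summed to 211 and 205 tags in mTEC-I, against 75.7 and 75.5 from mTEC-II, 72.1 and 63.8 from mTEC-III and 70.4 and 60.9 from mTEC-IV. Both mTEC-I libraries lay far above all 6 others, which lay close together. The difference was 1.57 on the log2 scale (SE 0.145, adjusted p = 1.79e-07), and mTEC-I was higher in each pair, by 1.45 over mTEC-II, 1.60 over mTEC-III and 1.65 over mTEC-IV. The gene was also called lower in mTEC-IV (-0.64, adjusted p = 0.00194) and mTEC-III (-0.57, adjusted p = 0.022), but mTEC-I is part of the mean in both contrasts. In pairs without mTEC-I no difference passed the test, with 0.15 ± 0.178 (SE) for mTEC-II minus mTEC-III, 0.21 ± 0.178 for mTEC-II minus mTEC-IV and 0.05 ± 0.178 for mTEC-III minus mTEC-IV. The call in mTEC-IV was lost without mTEC-IV replicate 2 (adjusted p = 0.0673) and on the scaling to total tags (0.0607), and that in mTEC-III without either mTEC-I library (0.074 and 0.0692), either mTEC-III library (0.0621 and 0.0839) or mTEC-IV replicate 1 (0.064).

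Most of the mTEC-I excess of Cxcl12 lay far from the gene. The peak 95 bases after its start held 15.8 and 15 tags in mTEC-I, against 1.17 and 6.23 from mTEC-II, 11.7 and 6.18 from mTEC-III and 11.5 and 7.35 from mTEC-IV, and did not pass the test among populations (adjusted p = 0.0714). Summed within 1 kb, Cxcl12 was 1.17 higher in mTEC-I (SE 0.52, adjusted p = 0.156). A stronger peak 1532 bases before the start held 36.8 and 39 tags in mTEC-I, against 44.3 and 41.3 from mTEC-II, 43.6 and 22.6 from mTEC-III and 33 and 32 from mTEC-IV, with overlapping ranges. In contrast, the peak 63233 bases before the start (mm9 chr6:117055205-117055436, intergenic) held 21.5 and 21.9 tags in mTEC-I and 0 in all 6 other libraries. Against a floor of 3 tags per library this is at least 3.68-fold higher in mTEC-I. The intergenic peak 211615 bases after the start (mm9 chr6:117330065-117330271) held 16.2 and 28.8 tags in mTEC-I, against 0 and 1.56 from mTEC-II, 0 and 3.08 from mTEC-III and 1.43 and 2.1 from mTEC-IV, a log2 difference of 3.45. Peaks 96066 bases before and 97268 bases after the start had log2 differences of 3.11 and 2.67 in mTEC-I. All 4 of these peaks reached 10 tags in mTEC-I alone. The sum called above includes them, so that call is not independent of this. Restricted to peaks within 10 kb of the start, Cxcl12 was 0.32 higher in mTEC-I and was not called (adjusted p = 0.286). Assignment to the nearest start site does not show that a peak at such a distance acts on Cxcl12. Endothelium and mesenchyme also use Cxcl12. Of the 5 endothelial marker genes, 4 (Cdh5, Kdr, Tek and Emcn) were higher in mTEC-I, as was 1 of 4 mesenchymal genes tested (Col1a1). Of all genes, 16.4% were higher there, and 1 of 4 is close to that share. Kdr was tested in only 6 of the 8 fits that left out 1 library. Tek was also called higher in mTEC-IV, with 92.7 and 79.8 tags in mTEC-IV, 81.9 and 69.9 from mTEC-I, 35 and 27.2 from mTEC-II and 28.5 and 17.5 from mTEC-III (1.18 for mTEC-IV, adjusted p = 0.000431; 0.93 for mTEC-I, adjusted p = 0.00306). The 5 endothelial genes summed to 470 to 498 tags per library in mTEC-I, against 276 to 337 in the other 6 libraries, and the 5 mesenchymal genes to 272 to 291, against 196 to 223. None of these marker genes was at 0 in all libraries of a population, and their part in the Cxcl12 result was not tested.

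**Figure D2:**
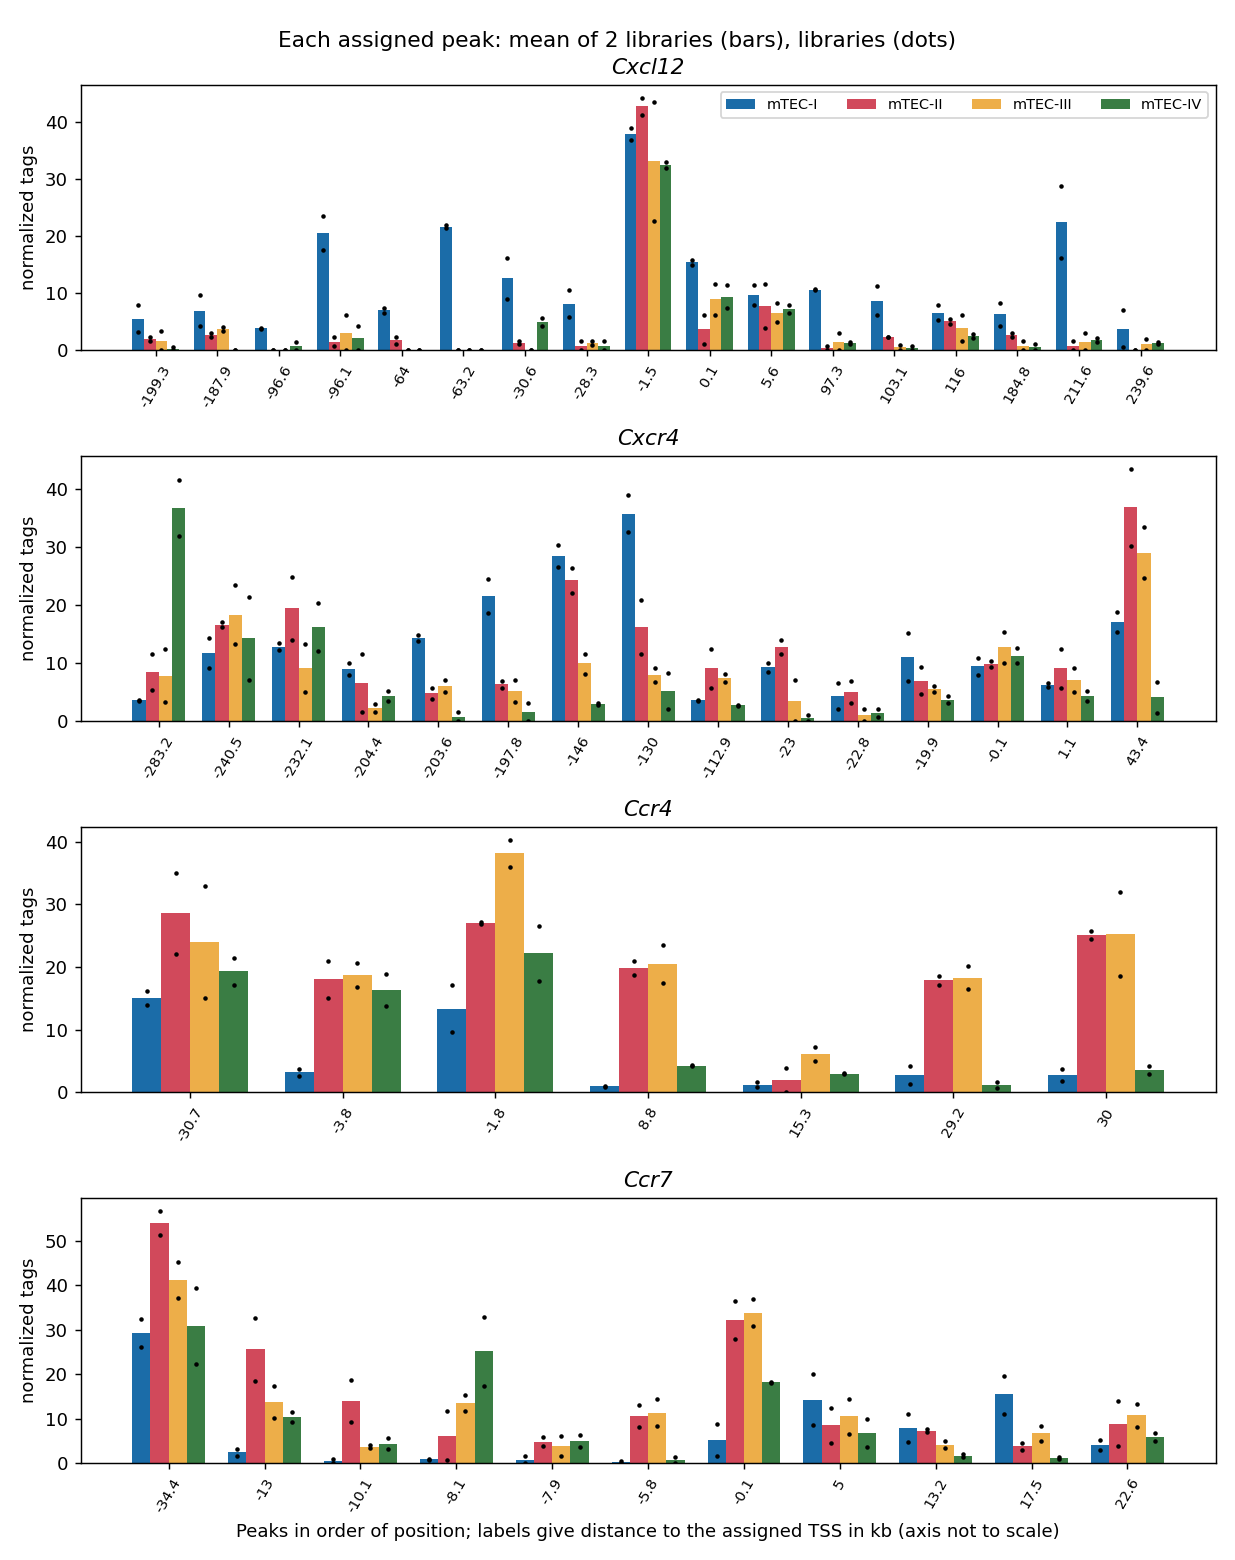
Normalised tags (vertical axes) of every peak assigned to Cxcl12, Cxcr4, Ccr4 and Ccr7, in order of position and labelled by distance to the start site in kb, with bars for the mean of 2 libraries and dots for the libraries. For Cxcl12 the populations resemble each other at -1.5 kb, while the peak at -63.2 kb holds tags in mTEC-I alone.

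Cxcr4, the receptor of Cxcl12, had 15 assigned peaks and was lowest in mTEC-IV. Its sum was 92.7 and 129 tags in mTEC-IV, against 213 and 185 from mTEC-I, 182 and 205 from mTEC-II and 129 and 139 from mTEC-III. mTEC-IV met mTEC-III at its upper library, and mTEC-I and mTEC-II overlapped. It was higher in mTEC-I by 0.49 (SE 0.133, adjusted p = 0.00712) and in mTEC-II by 0.43 (adjusted p = 0.042), and lower in mTEC-IV (-0.65, adjusted p = 0.000718). Those calls were lost, in mTEC-I, without mTEC-I replicate 1 (adjusted p = 0.133), in mTEC-IV without mTEC-IV replicate 1 (0.0977), and in mTEC-II without 6 of the 8 libraries (0.051 to 0.367). The start-site peak, 113 bases before the start, held 11 and 8.01 tags in mTEC-I, 10.5 and 9.34 from mTEC-II, 10.1 and 15.4 from mTEC-III and 10.1 and 12.6 from mTEC-IV, and did not pass the test (adjusted p = 0.888). Within 1 kb of the start the sum was 0.09 higher in mTEC-IV, the reverse of the whole sum. Distant peaks went both ways: in mTEC-I 4 were higher and 1 lower of 11 tested, and in mTEC-IV 1 was higher and 6 lower. Of the 4, 2 had reached 10 tags in mTEC-I alone, and the same 2 were among the 6 lower in mTEC-IV. The 1 higher in mTEC-IV lay 283242 bases before the start (mm9 chr1:130772013-130772223) with 41.7 and 32 tags in mTEC-IV, against 3.5 and 3.74 from mTEC-I, 11.7 and 5.45 from mTEC-II and 3.36 and 12.4 from mTEC-III (2.46, SE 0.492, adjusted p = 0.000952), a call lost without mTEC-IV replicate 1 (0.0546). The peak 43359 bases after the start was instead lowest in mTEC-IV, with 1.43 and 6.83 tags, against 18.8 and 15.5 from mTEC-I, 30.3 and 43.6 from mTEC-II and 33.6 and 24.7 from mTEC-III (-2.64, SE 0.404, adjusted p = 0.000148).

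Ackr3, the atypical receptor that takes up Cxcl12, was also lowest in mTEC-IV. Its 3 peaks summed to 30.2 and 34.6 tags in mTEC-IV, against 77.1 and 73.7 from mTEC-I, 65.3 and 84.9 from mTEC-II and 77.2 and 60.7 from mTEC-III, with no overlap (-1.15, SE 0.189, adjusted p = 8.98e-05). For Ackr3, mTEC-III minus mTEC-IV was 1.06 with TMM, but 0.42 and not called on total tags (adjusted p = 0.243). The intergenic peak 22547 bases before the start was lowest in mTEC-IV too, at 10.1 and 14.7 tags in mTEC-IV, against 34.6 and 31 from mTEC-I, 50.1 and 64.6 from mTEC-II and 60.4 and 42.2 from mTEC-III (-1.82, adjusted p = 6.43e-05). The start-site peak overlapped between populations, at 18.7 and 18.9 tags in mTEC-IV, 21 and 28.8 from mTEC-I, 12.8 and 18.7 from mTEC-II and 13.4 and 16.5 from mTEC-III, and on it alone Ackr3 was 0.07 higher in mTEC-IV with no call (adjusted p = 0.918). Another peak, 149839 bases after the start, reached 10 tags in mTEC-I alone, with 21.5 and 13.9 tags, against 2.33 and 1.56 from mTEC-II, 3.36 and 2.06 from mTEC-III and 1.43 and 1.05 from mTEC-IV, a log2 difference of 2.67.

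The other homeostatic ligands showed smaller differences or none that passed the test. Ccl25, the ligand of Ccr9, summed to 134 and 142 tags in mTEC-I, 152 and 150 from mTEC-II, 104 and 138 from mTEC-III and 162 and 142 from mTEC-IV, and no population was called (log2 differences of -0.29 to 0.16). In mTEC-III the value was -0.49 without mTEC-III replicate 2 and -1.09 on the scaling to total tags, and was called in both cases (adjusted p = 0.0444 and 1.34e-05). Most of the tags lay in a peak 10 bases before the assigned start, with 83.9 to 134 tags per library, that the annotation names as the promoter of Elavl1, so it cannot be read as the Ccl25 promoter. The 2 intergenic Ccl25 peaks did differ. The one 20762 bases after the start was lower in mTEC-I, with 6.13 and 4.81 tags, against 40.8 and 28 from mTEC-II, 16.8 and 21.6 from mTEC-III and 35.9 and 33.1 from mTEC-IV (-2.18, SE 0.301, adjusted p = 0.000156). The one 18984 bases after it was higher in mTEC-II, with 18.6 and 22.6 tags, against 3.06 and 2.67 from mTEC-I, 3.36 and 16.5 from mTEC-III and 2.88 and 2.62 from mTEC-IV (2.10, adjusted p = 0.0286), a call lost in 6 of the 8 fits without 1 library (adjusted p of 0.0514 to 0.178). Ccl21b, a Ccr7 ligand, had 1 peak of 3.36 to 14.4 tags inside Gm3893 and no call. It belongs to near-identical copies between which reads can be split, so its value is uncertain. Ccl19, Ccl21a, Ccl22, Xcl1, Ccr6 and Cxcr3 had no peak assigned to them in the table used here and were not analysed. Cxcl13, the ligand of Cxcr5 that attracts B cells, summed to 47.7 to 79.8 tags in all libraries with no call. Its peak 38329 bases before the start reached 10 tags in mTEC-IV alone, with 25.9 and 35.2 tags, against 1.75 and 1.07 from mTEC-I, 0 and 0 from mTEC-II and 6.72 and 4.12 from mTEC-III, a log2 difference of 3.66.

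The monocyte and eosinophil attractants Ccl2, Ccl7 and Ccl11, neighbours in a cluster on chromosome 11, were all highest in mTEC-I. Ccl2, a ligand of Ccr2, summed over 6 peaks to 99 and 93.4 tags in mTEC-I, against 28 and 32.7 from mTEC-II, 23.5 and 25.7 from mTEC-III and 7.9 and 6.82 from mTEC-IV. No population overlapped another, with mTEC-I on top and mTEC-IV at the bottom. Ccl2 was 2.37 higher in mTEC-I (SE 0.263, adjusted p = 1.29e-06) and lower in mTEC-IV (-2.35, adjusted p = 9.95e-07), and 5 of the 6 pairs of populations differed, mTEC-II minus mTEC-III being the exception (0.29 ± 0.322, SE). Its peak 28655 bases before the start was 2.42 higher in mTEC-I (adjusted p = 0.00431) and lower in mTEC-IV (-2.50, adjusted p = 0.00272). Those at 2445 and 23661 bases reached 10 tags in mTEC-I alone. The start-site peak held 11.8 and 21.4 tags in mTEC-I, against 8.15 and 10.9 from mTEC-II, 0 and 11.3 from mTEC-III and 5.75 and 3.15 from mTEC-IV, and did not pass (adjusted p = 0.132). Ccl7, another Ccr2 ligand, held at its start-site peak 18.8 and 31.5 tags in mTEC-I, against 0 and 5.45 from mTEC-II, 1.67 and 2.06 from mTEC-III and 0 and 4.2 from mTEC-IV, a log2 difference of 3.32 for a peak that reached 10 tags in mTEC-I alone. Its sum of 2 peaks was 27.6 and 40 tags in mTEC-I, against 5.83 and 17.9 from mTEC-II, 8.39 and 6.18 from mTEC-III and 3.59 and 11 from mTEC-IV (1.95, adjusted p = 0.00277), a call lost without mTEC-I replicate 2 (1.69, adjusted p = 0.101). The single peak of Ccl11, which attracts eosinophils through Ccr3, lies 90 bases before its start and held 13.6 and 12.3 tags in mTEC-I, against 0 in both mTEC-II and both mTEC-III libraries and 0 and 1.05 from mTEC-IV. Against the floor of 3 tags per library, mTEC-I was at least 2.22-fold higher than mTEC-II and at least 1.59-fold higher than mTEC-III, and without either mTEC-I library the gene fell under the filter and was not tested. Ccl1, the Ccr8 ligand at the other end of the cluster, held 108 and 81.2 tags in mTEC-I, against 74.6 and 63.8 from mTEC-II, 26.8 and 67.9 from mTEC-III and 49.6 and 70.8 from mTEC-IV (0.73, adjusted p = 0.0296), but DESeq2 did not call it (adjusted p = 0.141), nor did limma without mTEC-I replicate 1 (0.29), mTEC-I replicate 2 (0.0639) or mTEC-IV replicate 1 (0.0782). The endothelial and mesenchymal sums given beside Cxcl12 also stand beside these genes.

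**Figure D3:**
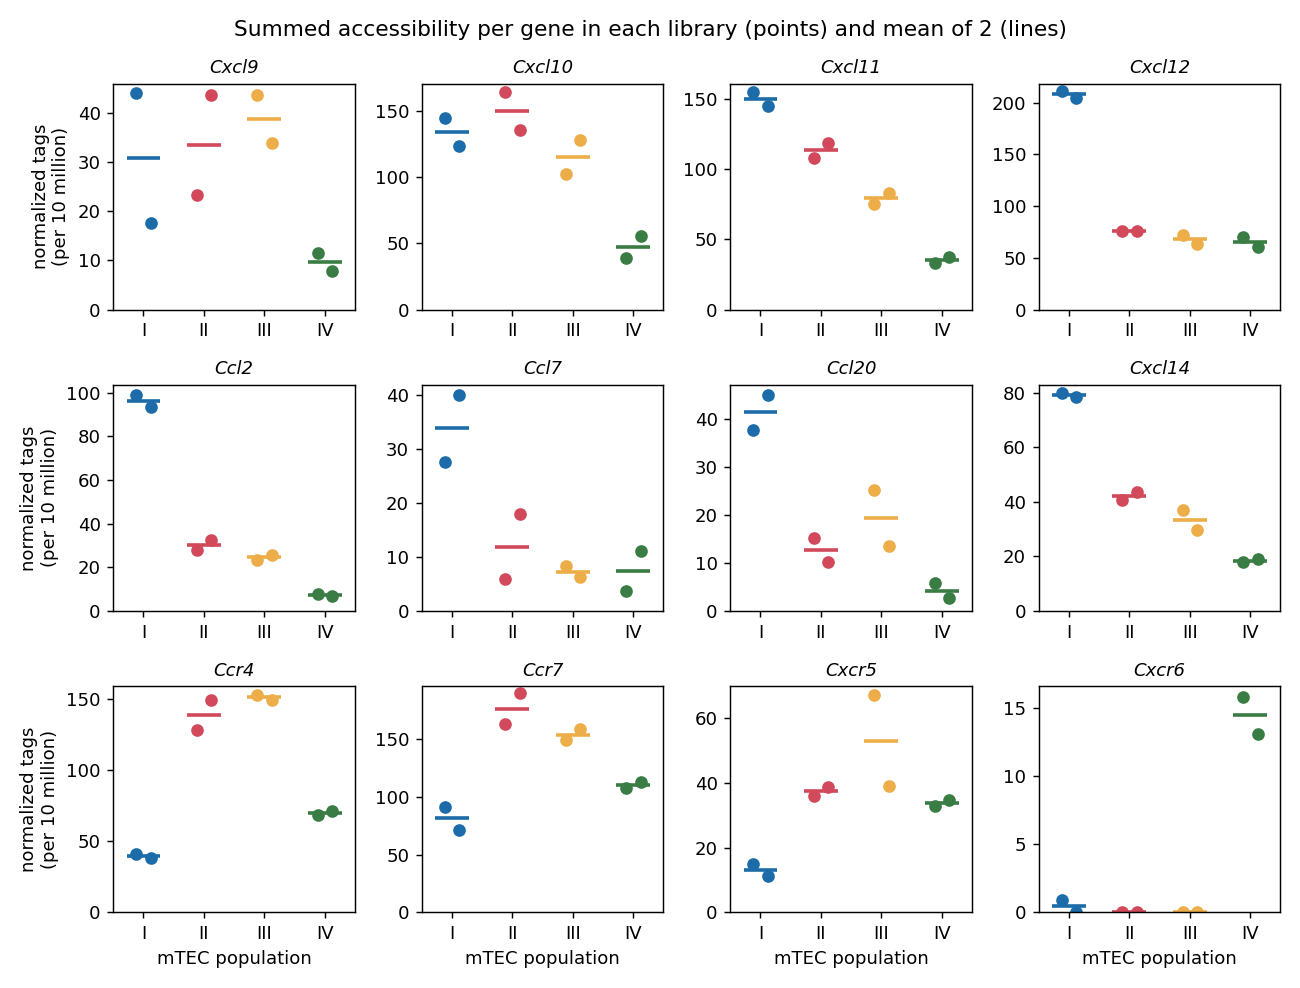
Summed accessibility of 12 genes in normalised tags (vertical axes, from 0), with 1 point per library and a line at the mean of the 2 libraries of each population (I to IV on the horizontal axes). Ccl2 descends from mTEC-I to mTEC-IV, Cxcl9, Cxcl10 and Cxcl11 are lowest in mTEC-IV, and Ccr4 is highest in mTEC-II and mTEC-III.

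The interferon-inducible ligands Cxcl9, Cxcl10 and Cxcl11, neighbours on chromosome 5, were lowest in mTEC-IV and were among the members whose start-site peaks were called. Cxcl10 summed to 38.8 and 55.1 tags in mTEC-IV, against 144 and 123 from mTEC-I, 164 and 135 from mTEC-II and 102 and 128 from mTEC-III, with no overlap (-1.49, SE 0.161, adjusted p = 6.99e-07). Its start-site peak, 77 bases before the start, held 17.2 and 37.8 tags in mTEC-IV, against 88 and 77.4 from mTEC-I, 80.4 and 84.1 from mTEC-II and 77.2 and 79.3 from mTEC-III (-1.62, adjusted p = 9.06e-05). The 6 libraries of mTEC-I, mTEC-II and mTEC-III lay within 77.2 to 88 tags there. Cxcl11 summed over 6 peaks to 33 and 37.8 tags in mTEC-IV, against 155 and 145 from mTEC-I, 108 and 119 from mTEC-II and 75.5 and 83.4 from mTEC-III. These libraries did not overlap between populations and descended in the order mTEC-I, mTEC-II, mTEC-III, mTEC-IV. Cxcl11 was lower in mTEC-IV (-1.62, SE 0.152, adjusted p = 1.33e-07) and 1.12 higher in mTEC-I (adjusted p = 1.26e-05). The neighbours mTEC-I and mTEC-II were not called apart (0.40 ± 0.186, SE, adjusted p = 0.127), nor were mTEC-II and mTEC-III (0.51 ± 0.186, adjusted p = 0.228). On total tags Cxcl11 in mTEC-III minus mTEC-IV was 0.51 and not called (adjusted p = 0.128), against 1.15 with TMM. Cxcl9 had 1 peak, 116 bases before its start, with 11.5 and 7.87 tags in mTEC-IV, against 44.2 and 17.6 from mTEC-I, 23.3 and 43.6 from mTEC-II and 43.6 and 34 from mTEC-III (-1.67, SE 0.349, adjusted p = 0.000888). Both mTEC-IV libraries lay below all others, whose replicates spread widely. In mTEC-II, Cxcl10 was 0.74 higher (adjusted p = 0.00582) and Cxcl11 0.59 higher (0.0164), but the first call was lost without mTEC-II replicate 1 (0.126) and the second without either library of mTEC-I (0.0614 and 0.0591) or mTEC-II (0.0723 and 0.182). Cxcl10 was also 0.52 higher in mTEC-I (adjusted p = 0.016), a call lost without either mTEC-I library (0.194 and 0.0589). Several of these peaks, including that 11611 bases before Cxcl11 (5.03 and 10.5 tags in mTEC-IV, against 47.7 and 44.9 from mTEC-I, 38.5 and 49.1 from mTEC-II and 21.8 and 28.8 from mTEC-III), lie in introns of Art3.

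Further ligands had their lowest values in mTEC-IV, and Cxcl14, Ccl20 and Cx3cl1 their highest in mTEC-I. Cxcl14, an epithelial chemokine, summed to 79.7 and 78.5 tags in mTEC-I, against 40.8 and 43.6 from mTEC-II, 36.9 and 29.8 from mTEC-III and 18 and 18.9 from mTEC-IV, with no overlap between populations. It was 1.39 higher in mTEC-I (SE 0.225, adjusted p = 8.23e-05) and lower in mTEC-IV (-1.34, adjusted p = 0.000112). mTEC-II and mTEC-III were not called apart (0.34, adjusted p = 0.625). Cxcl14 in mTEC-III minus mTEC-IV was 0.82 with TMM, but 0.19 and not called on total tags (adjusted p = 0.654). Its peak 134 bases after the start, in the 5′ UTR, reached 10 tags in mTEC-I alone, with 22.3 and 18.2 tags, against 3.5 and 3.11 from mTEC-II, 3.36 and 5.14 from mTEC-III and 0.717 and 4.2 from mTEC-IV. Ccl20, the ligand of Ccr6, summed to 37.7 and 44.9 tags in mTEC-I, against 15.1 and 10.1 from mTEC-II, 25.2 and 13.4 from mTEC-III and 5.75 and 2.62 from mTEC-IV (1.95 for mTEC-I, adjusted p = 0.000606; -2.17 for mTEC-IV, adjusted p = 0.000219). None of its 3 peaks lay within 1 kb of the start. Cx3cl1, the membrane-bound ligand of Cx3cr1, held 90.5 and 93.4 tags in mTEC-IV, against 212 and 203 from mTEC-I, 153 and 183 from mTEC-II and 185 and 150 from mTEC-III (-0.96, SE 0.124, adjusted p = 6.17e-06), and was also 0.60 higher in mTEC-I (adjusted p = 0.000861). All 6 of its peaks were tested and 5 were lower in mTEC-IV, the exception being the start-site peak, at 38.1 and 28.9 tags in mTEC-IV, 59.6 and 32.6 from mTEC-I, 25.6 and 33.5 from mTEC-II and 31.9 and 25.7 from mTEC-III (adjusted p = 0.327). Of the 5, the peak 1659 bases after the start reached 10 tags in mTEC-I alone, so its call is no independent evidence. Only those 1004 bases before and 13635 bases after the start kept the call in all 8 fits without 1 library. On total tags Cx3cl1 in mTEC-III minus mTEC-IV was 0.2 and not called (adjusted p = 0.505), against 0.85 with TMM. Cxcl16, the membrane-bound ligand of Cxcr6, held 65.4 and 48.3 tags in mTEC-IV, against 79.3 and 82.8 from mTEC-I, 75.8 and 89.5 from mTEC-II and 75.5 and 88.5 from mTEC-III (-0.53, adjusted p = 0.0213), a call lost without mTEC-IV replicate 2 (-0.32, adjusted p = 0.358), without mTEC-I replicate 2 (0.0509) and on the scaling to total tags (0.166). Its start-site peak did not pass (adjusted p = 0.387), and within 1 kb the value was 0.02 for mTEC-IV.

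The Ccl3, Ccl5, Ccl6 and Ccl9 genes form a second cluster on chromosome 11 and encode attractants of monocytes and T cells that act on receptors such as Ccr1. Ccl3 held 0.717 and 3.15 tags in mTEC-IV, against 24.5 and 26.2 from mTEC-I, 12.8 and 17.1 from mTEC-II and 15.1 and 14.4 from mTEC-III (-2.81, SE 0.428, adjusted p = 3.79e-05), although none of its 4 peaks alone passed the filter. It was also 1.59 higher in mTEC-I (adjusted p = 0.00631), a call lost without either mTEC-I library (0.0816 and 0.112). Ccl9 held 90.2 and 85.4 tags in mTEC-I, against 46.6 and 57.6 from mTEC-II, 55.4 and 44.3 from mTEC-III and 41.7 and 47.8 from mTEC-IV (0.84, SE 0.191, adjusted p = 0.00182). Ccl5 held 90.7 and 89.7 tags in mTEC-I, against 81.6 and 56.8 from mTEC-II, 52 and 50.4 from mTEC-III and 46 and 52 from mTEC-IV (0.69, adjusted p = 0.00603), a call lost without either mTEC-I library (0.0679 and 0.0812). Ccl6 held 10.1 and 12.6 tags in mTEC-IV, against 28.5 and 13.9 from mTEC-I, 17.5 and 26.5 from mTEC-II and 30.2 and 26.8 from mTEC-III (-0.97, adjusted p = 0.0342), a call lost without mTEC-I replicate 1 (0.118), mTEC-II replicate 2 (0.0665) or either mTEC-IV library (0.263 and 0.103). Its 3 peaks lie in introns of E230016K23Rik. Ccl17, a Ccr4 ligand, held 86.2 and 67.7 tags in mTEC-II, against 61.3 and 29.4 from mTEC-I, 65.5 and 53.5 from mTEC-III and 40.9 and 47.2 from mTEC-IV. It was not called in mTEC-II by limma (0.66, SE 0.236, adjusted p = 0.0793) but was by edgeR (adjusted p = 0.0473), on the scaling to total tags (0.0286) and without mTEC-I replicate 1 (0.0338). Ccl27a, a skin-type chemokine, held 66.2 to 105 tags with no call in any population.

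Neutrophil attractants that act on Cxcr2 sit together on chromosome 5 and did not move as a block. Cxcl1 held 16.3 and 30.4 tags in mTEC-II, against 64.4 and 63.5 from mTEC-I, 47 and 50.4 from mTEC-III and 48.8 and 36.7 from mTEC-IV (-1.16, SE 0.244, adjusted p = 0.00476), a call lost without mTEC-II replicate 1 (-0.73, adjusted p = 0.135). It was 0.82 higher in mTEC-I (adjusted p = 0.0128), a call lost without either mTEC-I library (0.111 and 0.116). Its start-site peak did not pass (adjusted p = 0.0943), while the peak 15020 bases before the start was 2.43 higher in mTEC-I (adjusted p = 0.00214, and 0.0531 and 0.0654 without replicate 1 and 2 of mTEC-I), with 34.6 and 36.8 tags in mTEC-I, against 1.17 and 4.67 from mTEC-II, 26.8 and 9.26 from mTEC-III and 2.88 and 6.29 from mTEC-IV. Cxcl2 was lower in mTEC-I, with 28.9 and 37.4 tags, against 38.5 and 54.5 from mTEC-II, 57.1 and 55.6 from mTEC-III and 63.2 and 65.6 from mTEC-IV (-0.72, adjusted p = 0.0107), no longer called without mTEC-I replicate 1 (0.249) and on the scaling to total tags (0.59). Cxcl3, with 1 peak, held 6.57 and 6.41 tags in mTEC-I, against 24.5 and 12.5 from mTEC-II, 15.1 and 7.2 from mTEC-III and 20.1 and 16.3 from mTEC-IV (-1.09, adjusted p = 0.0426), a call lost in 6 of the 8 fits without 1 library (adjusted p of 0.0593 to 0.214), on the scaling to total tags (0.237) and with DESeq2 size factors (0.0642). The 250 upstream bases of Cxcl1, Cxcl2 and Cxcl3 each held a kappaB match, at 71, 97 and 73 bases before the start. Cxcl5 was not called as a sum (66.7 to 94.2 tags), while 2 of its peaks went opposite ways in mTEC-IV. The peak 52792 bases before its start held 4.31 and 0 tags in mTEC-IV, against 36.8 and 32.6 from mTEC-I, 16.3 and 24.9 from mTEC-II and 36.9 and 27.8 from mTEC-III (-3.66, adjusted p = 5.87e-05). The peak 17048 bases before it held 38.1 and 33.1 tags in mTEC-IV, against 2.63 and 0 from mTEC-I, 14 and 20.2 from mTEC-II and 10.1 and 10.3 from mTEC-III (2.33, adjusted p = 0.00129), a call lost without mTEC-IV replicate 1 (0.0554). Cxcl15, a lung chemokine, had 1 peak 26427 bases from its start with 18.7 and 12.6 tags in mTEC-IV, against 0.436 and 0 from mTEC-I, 2.33 and 0.774 from mTEC-II and 0 and 4.12 from mTEC-III, a log2 difference of 3.13. Without either mTEC-IV library it fell under the filter and was not tested. Cxcl17, a mucosal chemokine, held 39.5 and 31 tags in mTEC-IV, against 12.3 and 11.2 from mTEC-I, 12.8 and 11.7 from mTEC-II and 16.8 and 19.6 from mTEC-III (1.28, SE 0.323, adjusted p = 0.00417), a call lost without mTEC-IV replicate 1 (adjusted p = 0.128). Both of its peaks lie in introns of 4732471J01Rik.

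Among receptors, Ccr4 and Ccr7, which lead selected thymocytes to the medulla, were lowest in mTEC-I. Ccr4 summed over 7 peaks to 128 and 149 tags in mTEC-II and 153 and 149 from mTEC-III, against 40.7 and 37.9 from mTEC-I and 68.2 and 71.4 from mTEC-IV. mTEC-II and mTEC-III overlapped, mTEC-IV lay below both, and mTEC-I was lowest. Ccr4 was lower in mTEC-I (-1.5, SE 0.148, adjusted p = 3.43e-07), 0.88 higher in mTEC-II (adjusted p = 0.0011) and 1.05 higher in mTEC-III (adjusted p = 0.00084). On the scaling to total tags, mTEC-III was 0.25 higher and not called (adjusted p = 0.33). It was also lower in mTEC-IV (-0.42, adjusted p = 0.0341), a call lost without mTEC-I replicate 1 (0.0696), mTEC-II replicate 2 (0.0653), either mTEC-IV library (0.233 and 0.141) and on the scaling to total tags (0.296). The 2 peaks 29232 and 30012 bases after its start lie in an intron of Glb1. The second held 24.5 and 25.7 tags in mTEC-II and 31.9 and 18.5 from mTEC-III, against 1.75 and 3.74 from mTEC-I and 2.88 and 4.2 from mTEC-IV, and passed in all 4 contrasts, with calls lost in 1 to 6 of the 8 fits without 1 library.

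Ccr7, the receptor of Ccl19 and Ccl21, held 163 and 190 tags in mTEC-II, against 91.5 and 71.5 from mTEC-I, 149 and 159 from mTEC-III and 108 and 113 from mTEC-IV. It was lower in mTEC-I (-0.83, SE 0.134, adjusted p = 8.29e-05), where the scaling to total tags gave -0.28 and no call (adjusted p = 0.301), and 0.66 higher in mTEC-II (adjusted p = 0.00368), a call lost without mTEC-II replicate 2 (0.49, adjusted p = 0.11). In mTEC-III it was 0.40 higher and not called (adjusted p = 0.0749). On total tags the pair mTEC-I minus mTEC-III was 0.09, and -0.92 with TMM. The pair mTEC-III minus mTEC-IV was -0.17 on total tags and 0.47 with TMM, so the place of mTEC-III depends on the scaling. Its start-site peak, 145 bases before the start (mm9 chr11:99016370-99016702), held 8.76 and 1.6 tags in mTEC-I, against 28 and 36.6 from mTEC-II, 36.9 and 30.9 from mTEC-III and 18 and 18.4 from mTEC-IV (-2.48, SE 0.408, adjusted p = 0.000475). All libraries of the other 3 populations lay above both mTEC-I libraries there. Upstream, the peak at 5816 bases was highest in mTEC-II, with 8.15 and 13.2 tags, and in mTEC-III, with 8.39 and 14.4 tags, against 0 and 0.533 from mTEC-I and 1.43 and 0 from mTEC-IV. The peak at 8088 bases was instead highest in mTEC-IV, with 33 and 17.3 tags, against 0.879 and 1.07 from mTEC-I, 11.7 and 0.774 from mTEC-II and 11.7 and 15.4 from mTEC-III (2.28, adjusted p = 0.00925), a call lost without either mTEC-IV library (0.229 and 0.0531). A peak 17496 bases after the start reached 10 tags in mTEC-I alone (log2 difference of 1.87).

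Receptors best known from blood cells were also assigned peaks. Cxcr5, the Cxcl13 receptor of B cells, held 67.1 and 39.1 tags in mTEC-III, against 14.9 and 11.2 from mTEC-I, 36.1 and 38.9 from mTEC-II and 33 and 34.6 from mTEC-IV. It was lower in mTEC-I (-1.57, SE 0.271, adjusted p = 0.000155) and 0.98 higher in mTEC-III (adjusted p = 0.0325). The mTEC-III call was lost on the scaling to total tags (0.19, adjusted p = 0.572) and without mTEC-I replicate 2 (0.0725), mTEC-II replicate 1 (0.0522), mTEC-III replicate 1 (0.353), and mTEC-IV replicate 1 (0.0769) and 2 (0.0642). Xcr1, the Xcl1 receptor of dendritic cells, held 53.7 and 35 tags in mTEC-III, against 13.6 and 12.8 from mTEC-I, 16.3 and 23.4 from mTEC-II and 32.3 and 24.7 from mTEC-IV, at a single peak 11011 bases before its start (1.12 for mTEC-III, adjusted p = 0.0273). That call was likewise lost on the scaling to total tags (0.34, adjusted p = 0.356) and without mTEC-I replicate 1 (0.0563) or 2 (0.0609), mTEC-III replicate 1 (0.26), or mTEC-IV replicate 1 (0.0523) or 2 (0.0673). Xcr1 was lower in mTEC-I (-1.07, adjusted p = 0.00805), a call lost without either mTEC-I library (0.0792 and 0.0908) and on the scaling to total tags (0.179). Ccr2, a monocyte receptor, had 1 intronic peak with 11.7 and 13.2 tags in mTEC-II, against 0 in both mTEC-I libraries, 1.67 and 3.08 from mTEC-III and 3.59 and 4.2 from mTEC-IV. Against the floor of 3 tags per library it was at least 4.27-fold higher in mTEC-II than in mTEC-I. Without either mTEC-II library it fell under the filter and was not tested. Cxcr1, a neutrophil receptor, held 1.31 and 2.13 tags in mTEC-I, against 6.99 and 6.23 from mTEC-II, 10.1 and 2.06 from mTEC-III and 10.1 and 12.1 from mTEC-IV (-1.59, adjusted p = 0.0326), a call lost without mTEC-IV replicate 2 (0.0908) and on the scaling to total tags (0.0717).

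Ccr3, the eosinophil receptor of Ccl11, went the other way. It held 37.2 and 31 tags in mTEC-I, against 14 and 24.1 from mTEC-II, 13.4 and 12.4 from mTEC-III and 7.9 and 2.62 from mTEC-IV (1.60 for mTEC-I, adjusted p = 0.0037; -1.89 for mTEC-IV, adjusted p = 0.000945). The first call was lost without mTEC-I replicate 1 (0.0884) and the second without mTEC-IV replicate 2 (0.0695). Cxcr6, the receptor of Cxcl16, had 1 peak, in the transcription end region of Fyco1 and 16958 bases before the Cxcr6 start, with 15.8 and 13.1 tags in mTEC-IV, against 0.879 and 0 from mTEC-I and 0 in both libraries of mTEC-II and of mTEC-III. Against the floor of 3 tags per library it was at least 2.48-fold higher in mTEC-IV than in mTEC-II and at least 1.78-fold higher than in mTEC-III. Without either mTEC-IV library it fell under the filter and was not tested. Ccr9, the Ccl25 receptor of thymocytes, also had 1 peak, with 10.1 and 9.45 tags in mTEC-IV, against 0 in both mTEC-I libraries, 1.17 and 1.56 from mTEC-II and 0 and 5.14 from mTEC-III. It was not tested, and mTEC-IV was at least 3.35-fold higher than the floor in mTEC-I. Ccr8 (2.33 to 24.9 tags), Ccr10 (24.7 to 39.5 tags) and Cx3cr1 (8.39 to 25.2 tags) were called in no population.

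Some markers of blood cells moved with some of these receptors. Ptprc, which encodes CD45 and by which blood cells were sorted out, held 35.9 and 20.5 tags in mTEC-IV, against 3.07 and 5.87 from mTEC-I, 5.83 and 10.1 from mTEC-II and 10.1 and 10.3 from mTEC-III (1.81 for mTEC-IV, adjusted p = 0.00281), a call lost without mTEC-IV replicate 1 (0.162). Of 8 thymocyte genes, the 5 with a peak summed to 85 to 99.1 tags in mTEC-IV, against 20.3 to 29.3 for mTEC-I, 31.5 to 67.7 for mTEC-II and 52 to 54.6 for mTEC-III. Cd4 and Lck were higher in mTEC-IV, and Lck and Themis were lower in mTEC-I. Cd3e was called in no population. It held 15.8 and 17.8 tags in mTEC-IV and 18.5 and 15.4 from mTEC-III. mTEC-II gave 9.32 and 19.5 and mTEC-I 12.3 and 7.47. Cd4 reached 10 tags in mTEC-IV alone, so its call is no independent evidence. The Themis call was lost without either mTEC-I library, mTEC-II replicate 2 or mTEC-IV replicate 1. None of the 8 had a peak within 1 kb of its start, Rag1 was at 0 in every library, and Cd3g, Cd8a and Ptcra had no assigned peak. Of 5 B cell genes, the 2 with a peak summed to 103 to 111 tags in mTEC-IV, against 40.6 to 45.5 for mTEC-I and 61.8 to 82.2 for mTEC-II and mTEC-III, with Cd79a and Cd79b higher in mTEC-IV and lower in mTEC-I and no assigned peak for Ms4a1 or Pax5. The Cd79b call in mTEC-IV (0.5) held in only 2 of the 8 fits that left out 1 library. That in mTEC-I (-0.7) was lost without either mTEC-I library. Cd79a was tested in only 6 of the 8 fits. Of 7 myeloid and dendritic genes, the 4 with a peak summed to 116 to 148 tags in mTEC-I and 166 to 247 in the other libraries, with Flt3 and Cd68 lower in mTEC-I and no assigned peak for Itgax, Csf1r or Lyz2. Flt3 was also called higher in mTEC-IV (1.05) and Zbtb46 higher in mTEC-II (0.54). Both of those calls were lost without either library of the population named. Tuft cell genes moved with mTEC-IV too, with 4 of 4 higher there, although Trpm5 reached 10 tags in mTEC-IV alone. Of all genes, 18.1% were higher in mTEC-IV and 19.7% lower in mTEC-I. The part of these cells in the receptor results was not tested, and in sorted bulk cells a change in every cell and a change in the share of some cells cannot be told apart.

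The scavenging receptors of CC chemokines, Ackr2 and Ackr4, had their lowest means in mTEC-II. Ackr4, which takes up Ccl19, Ccl21 and Ccl25, summed over 8 peaks to 26.8 and 20.2 tags in mTEC-II, against 78.8 and 70 from mTEC-I, 21.8 and 41.2 from mTEC-III and 62.5 and 65.6 from mTEC-IV (-1.13 for mTEC-II, adjusted p = 0.00532; 1.04 for mTEC-I, adjusted p = 0.00235; 0.76 for mTEC-IV, adjusted p = 0.0212). The mTEC-II libraries overlapped those of mTEC-III. The calls were lost without mTEC-II replicate 2 for mTEC-II (0.0671), without mTEC-I replicate 1 for mTEC-I (0.0571), and without mTEC-I replicate 2 (0.0552) or either mTEC-IV library (0.14 and 0.165) for mTEC-IV. Different peaks made up the sums of mTEC-I and mTEC-IV. The peak 28586 bases before the start, in an intron of Dnajc13, held 21.9 and 28.3 tags in mTEC-I, against 0 and 1.56 from mTEC-II, 6.72 and 1.02 from mTEC-III and 0 and 2.1 from mTEC-IV, a log2 difference of 3.54. The peak in the 3′ UTR of Ackr4, 28306 bases after the start, held 15.1 and 24.1 tags in mTEC-IV, against 0 in both mTEC-I libraries, 4.67 and 3.11 from mTEC-II and 0 and 4.12 from mTEC-III, a log2 difference of 3.18, and the intronic Ackr4 peak at 23600 bases had one of 3.17. The first of these 3 peaks reached 10 tags in mTEC-I alone and the others in mTEC-IV alone.

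Ackr2, which degrades inflammatory CC chemokines, held 9.32 and 8.55 tags in mTEC-II, against 31.5 and 34.7 from mTEC-I, 15.1 and 16.5 from mTEC-III and 29.4 and 32.5 from mTEC-IV (-1.41, SE 0.304, adjusted p = 0.00553). Here too mTEC-I and mTEC-IV reached similar sums from different peaks. Of its 4 peaks 2 were tested, each entered through mTEC-I or mTEC-IV alone, and both are part of these sums. The intergenic peak 19901 bases before the start held 12.3 and 13.3 tags in mTEC-I, against 0 and 0.774 from mTEC-II, 6.72 and 0 from mTEC-III and 0.717 and 0 from mTEC-IV, a log2 difference of 3.03. The intronic peak 7471 bases after it held 23.7 and 23.6 tags in mTEC-IV, against 0 and 0.533 from mTEC-I, 3.5 and 3.11 from mTEC-II and 0 and 7.2 from mTEC-III, a log2 difference of 3.31, each peak reaching 10 tags in that population alone. The sum was called higher in mTEC-I (0.97, adjusted p = 0.0172), which was lost without either mTEC-I library (0.115 and 0.196), and in mTEC-IV (0.84, adjusted p = 0.0395), which was lost without any of the 4 libraries of mTEC-I and mTEC-IV (0.0846 to 0.246) and on the scaling to total tags (0.0609). Ackr1, which binds many chemokines, had 2 peaks in introns of Cadm3, summing to 21.8 to 39.7 tags, and no call. Counting peaks that reached 10 tags in 1 population alone, 5 genes had peaks called both higher and lower in the same contrast: Ackr2, Ackr4, Ccr7, Cxcl5 and Cxcr4. The share of all genes with such opposite peaks was not counted, so whether 5 is many cannot be said.

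Setting the populations against each other in pairs, mTEC-I minus mTEC-IV gave the most calls, 16 genes higher and 12 lower of 44 (background 16.4% and 20.9%), and mTEC-II minus mTEC-III gave 0 (background 0.0964% and 0.363%). In that last pair 6 genes had an unadjusted p under 0.05, and edgeR also called 0. The other pairs gave 10 higher and 6 lower for mTEC-I minus mTEC-II (11.4% and 12.9%), 13 and 6 for mTEC-I minus mTEC-III (12.9% and 12.9%), 13 and 6 for mTEC-II minus mTEC-IV (11.5% and 13.4%), and 12 and 3 for mTEC-III minus mTEC-IV (9.72% and 12.7%). Pairs and contrasts share libraries and are not independent of each other. Of the 27 ligands, 14 had their highest mean in mTEC-I (26.2% of all genes tested had it there) and 4 in mTEC-IV (37.8%). In contrast, 15 had their lowest in mTEC-IV (22.7%) and 6 in mTEC-I (38.4%). Of the 18 receptors, atypical ones included, 9 had their lowest mean in mTEC-I and 3 in mTEC-IV. Their highest mean lay in mTEC-I for 6 and in mTEC-IV for 6.

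Most of the peaks called lay away from start sites. Of the 166 peaks, 20 lay within 1 kb of the assigned start, 90 over 10 kb and 17 over 100 kb from it, and 26 lay inside another annotated gene. Peaks within 1 kb differed among populations in 8 of 19 tested, 42.1% (all such peaks 20.8%), and peaks farther away in 68 of 103, 66% (all such peaks 59.9%). Of these, 3 of the 8 and 23 of the 68 had passed the filter through 1 population alone. The 8 were those of Ccl7, Ccl11, Ccr7, Cxcl9, Cxcl10, Cxcl11, Cxcl14 and Cxcr5, while those assigned to Ackr3, Ccl2, Ccl25, Ccl27a, Cx3cl1, Cxcl1, Cxcl3, Cxcl12, Cxcl16 and Cxcr4 were not called.

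**Figure D4:**
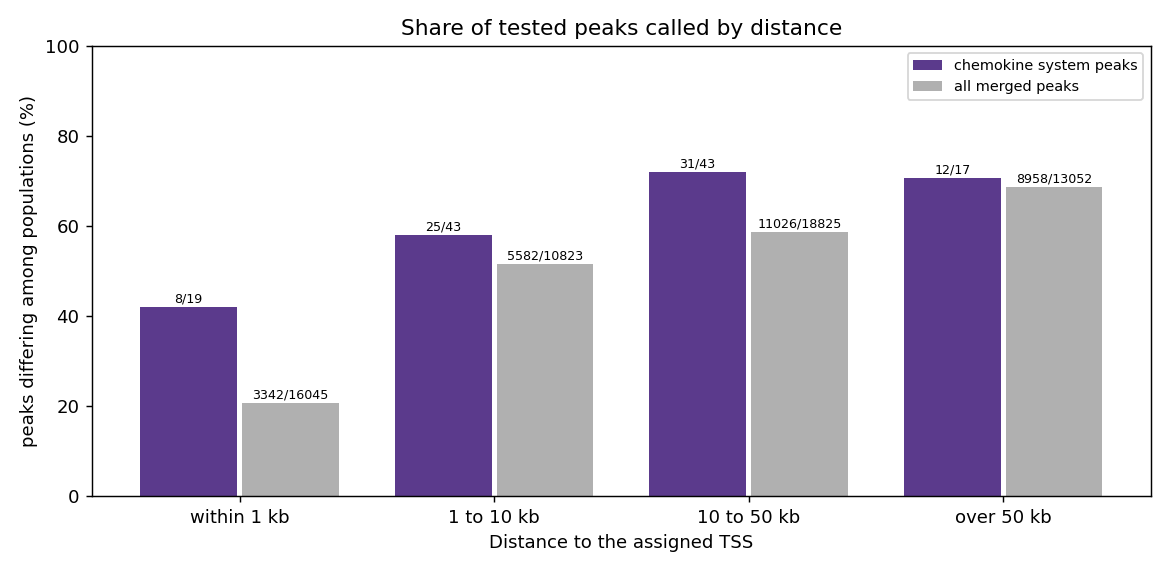
Share of tested peaks that differed among the 4 populations (vertical axis, %) by distance to the assigned start site, for the chemokine system peaks (purple) and all merged peaks (grey), with the counts called and tested above each bar. The share is 42.1% for chemokine system peaks within 1 kb, against 20.8% of all peaks there.

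The authors' own peak lists, called in each library alone, showed how many of these peaks each library contributed. Of the 166 merged member peaks, 110 and 85 were called in the mTEC-I libraries, 36 and 62 in those of mTEC-II, 15 and 28 in those of mTEC-III and 37 and 57 in those of mTEC-IV. Both libraries of a population called 74, 32, 14 and 30 peaks for mTEC-I to mTEC-IV, and 33, 3, 0 and 9 were called in libraries of that population only. Only 5 peaks were called in all 8 libraries, and 61 in 1 library. The shares of all merged peaks called in both libraries, in 1 population only, in all 8 libraries or in 1 library were not counted. Whether these counts are many or few cannot be said. The 2 mTEC-IV libraries called 22.3% and 34.3% of the member peaks, against 39.9% and 48.1% of all merged peaks. Those of mTEC-III called 9.04% and 16.9%, against 14.2% and 26.3%. The mTEC-I libraries called 66.3% and 51.2%, against 59.1% and 52.5%. Those of mTEC-II called 21.7% and 37.3%, against 25.3% and 37.3%. These counts also carry the depth and the share of tags in peaks of each library.

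Genes that act with the chemokine system were counted from lists. Of 29 genes of receptor signalling, 27 were tested: mTEC-I had 0 higher and 13 lower, mTEC-IV 10 higher and 2 lower (all genes 16.4% and 19.7% in mTEC-I, 18.1% and 14% in mTEC-IV). Pik3cg, the PI3-kinase catalytic subunit activated by G proteins, held 330 tags in both mTEC-IV libraries, against 63.5 and 61.4 from mTEC-I, 62.9 and 76.3 from mTEC-II and 70.5 and 89.5 from mTEC-III (2.22, adjusted p = 2.34e-09). Elmo1 (1.31), Vav1 (1.02) and Plcb2 (1.41), which tuft cells also use for taste signalling, were also higher in mTEC-IV. The 2 genes of the list called lower there were Tiam1 (-0.59) and Rgs1 (-1.1), and Dock2 was not called (-0.3). The mTEC-IV calls of Pik3cg, Elmo1, Vav1, Plcb2, Tiam1 and Rgs1 and that of Pdpn in mTEC-I held in all 8 fits without 1 library. Of 10 genes that make or carry heparan sulfate or otherwise present chemokines, mTEC-I had 5 higher and 2 lower, mTEC-IV 2 higher and 5 lower, where 2 of 10 is close to the share over all genes. Pdpn, which binds Ccl21, held 138 and 129 tags in mTEC-I, against 57.1 and 55.3 from mTEC-II, 60.4 and 57.6 from mTEC-III and 18 and 25.7 from mTEC-IV (1.66 for mTEC-I, adjusted p = 2.14e-06). Of 11 chemokine genes under other symbols, 6 were tested. Cmklr1, the chemerin receptor, was higher in mTEC-III, with 67.1 and 62.8 tags, against 11.8 and 13.3 from mTEC-I, 25.6 and 56.1 from mTEC-II and 18 and 23.1 from mTEC-IV (1.55, adjusted p = 0.00474), a call lost without mTEC-III replicate 1 (0.0612). Gpr35 was higher in mTEC-II, with 59.4 and 63.8 tags, against 18.8 and 12.3 from mTEC-I, 45.3 and 27.8 from mTEC-III and 10.1 and 19.9 from mTEC-IV (1.59, adjusted p = 0.00282), a call lost without mTEC-II replicate 2 (0.0535).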

How the data were processed

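ATAC-seq libraries of 4 sorted populations, 2 each, were analysed. Peaks were called by the authors library by library with HOMER findPeaks, per the file headers (fragment length 300 bp, FDR 0.001, at least 4-fold over the local 10000 bp) and gave each peak a findPeaks score. They merged the lists, and the deposited merged table gives the signal of each peak as tags per 10000000 total tags on mm9, with HOMER's nearest gene. bcl2fastq 2.15.0.4 and Picard 1.108 are named per the submitters' processing notes. The aligner is not given in the sources used here. Of the deposited values, 100% were whole read ends (tolerance 0.02 read ends).

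Values were rescaled by TMM (edgeR 4.0.16) and tested as log2(value + 1) with limma 3.58.1 in R 4.3.3 over all 8 libraries, with no block, for peaks or genes with at least 10 normalised tags in 2 libraries: 58745 of 74090 peaks and 17636 of 18215 genes. A gene is the sum of its assigned peaks, so levels of different genes are not compared. Populations were compared with the mean of the other 3 and in pairs. P-values were adjusted by Benjamini-Hochberg over all features within a comparison, at 0.05. The floor for a value of 0 was 3 tags per library, which, like the read ends, covers counting error only. Alternatives were total-tag scaling, DESeq2 1.42.0 size factors, other pseudocounts, no filter, edgeR and DESeq2 on read ends, a replicate block, peaks within 10 kb and each library left out. Peaks within 1 kb were added after seeing the data. Named genes were the thymic chemokine genes, whatever their values, and the 25 called genes with the largest differences. Other members and peaks were named after their values were seen. Scripts were tested on simulated data. The values of 1 receptor are in the counts but not reported here. The members and gene lists were chosen with earlier results of these data known.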

Additional observations from a re-analysis of the deposited data

How the results depend on the processing

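On total tags, 61 peaks were higher in mTEC-I, 5 genes lower in mTEC-I, and 0 peaks and 0 genes higher and 28 peaks and 26 genes lower in mTEC-III. With peaks within 10 kb, 18 genes differed among populations, 10 were higher and 6 lower in mTEC-I, 3 higher and 0 lower in mTEC-II, 1 higher and 0 lower in mTEC-III, and 1 higher and 7 lower in mTEC-IV. edgeR on read ends gave more peaks that were higher: 53 for mTEC-I, 25 for mTEC-II, 10 for mTEC-III. DESeq2 on read ends gave 0 peaks and 0 genes lower in mTEC-III, and its size factors gave 2 genes lower there. A pseudocount of 0.5 gave 10 peaks higher in mTEC-II and 1 higher and 0 lower in mTEC-III, a pseudocount of 5 gave 11 lower in mTEC-II and 10 higher and 4 lower in mTEC-III, and no filter gave 2 lower in mTEC-III. The cause of these shifts was not tested. The mTEC-IV difference of Ackr3 turned to 0.07 within 10 kb and within 1 kb, and within 1 kb those of Cxcl16 to 0.02 and Cxcr4 to 0.09.

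Leaving out 1 library gave 8 to 19 genes higher and 6 to 10 lower in mTEC-I, 2 to 6 and 2 to 3 in mTEC-II, 1 to 3 and 0 to 3 in mTEC-III, 0 to 8 and 10 to 17 in mTEC-IV, and 25 to 34 among populations. For peaks it gave 0 to 40 higher and 9 to 29 lower in mTEC-I, 0 to 19 and 0 to 12 in mTEC-II, 0 to 5 and 0 to 8 in mTEC-III, 1 to 17 and 18 to 43 in mTEC-IV, and 48 to 82 among populations. The 0 stands for the fits without either mTEC-I library for peaks higher in mTEC-I and without either mTEC-II library for those higher in mTEC-II, and the 1 for that without mTEC-IV replicate 1. Libraries with the same replicate number did not deviate together (correlations of -0.014 to 0.032 over 6 pairs of populations), and with the replicate number as a block 76 peaks and 31 genes differed among populations. mTEC-III replicate 1 had the fewest read ends in these peaks, 1288.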
